A study of Homo sapiens with 11 samples.

Results

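SF3A and SF3B are the protein complexes that turn the U2 small nuclear ribonucleoprotein (U2 snRNP) into the particle that recognises the intron branch site. Their 10 subunit genes were followed here across 4 constructs, shRNA A and shRNA B against Tat-SF1 and the controls empty vector and GFP shRNA. The members were all probe sets whose only gene symbol was SF3A1, SF3A2, SF3A3, SF3B1, SF3B2, SF3B3, SF3B4, SF3B5, SF3B6 (listed on this array as SF3B14) or PHF5A. This gave 200 of the 1399022 exon probe sets in the table, and 9 of the 10 genes were among the 14528 genes with a gene value; SF3B5 had too few probe sets. No subunit gene passed the test over all genes in any comparison.

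T-REx-293 is a HEK293 derivative, a human embryonic kidney line, in which tetracycline switches a plasmid on. In every group the cells stably carried a GFP plasmid (green fluorescent protein) and were given 2.5 µg/mL tetracycline for 72 h. The inducible construct was an empty vector (2 arrays), an shRNA against GFP (3 arrays), or one of a pair of shRNAs against Tat-SF1, shRNA A and shRNA B (3 arrays each). Empty vector and GFP shRNA together make up the 5 controls, and shRNA A and shRNA B the knockdown group of 6 arrays, on Affymetrix exon arrays of total RNA. The labels do not say whether each line was a clone, and the series design calls the replicates biological and leaves out the third empty vector replicate for failing quality control.

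The SF3A complex holds SF3A1, SF3A2 and SF3A3, and the SF3B complex holds the other 7 subunits. SF3B1 is the large scaffold that closes around the branch site helix together with PHF5A. SF3B enters both the U2 snRNP and the minor-class U11/U12 particle. Tat-SF1, encoded by HTATSF1, binds the U2 snRNP through a domain that grips short tryptophan-containing motifs in the N-terminal part of SF3B1, and it leaves before the stable branch site complex forms. SF3B3 and SF3B5 are also subunits of SAGA, a coactivator complex that acetylates histones.

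The promoters of the subunit genes are shown because they share a short motif. RefSeq windows (GRCh38.p14) of 300 bases, from 250 before to 50 after the transcript start, were held for 8 of the 10 genes, all but SF3B3 and PHF5A. The motif CCGGAAG, the core bound by ETS-family transcription factors, was searched on both strands. It stood in the windows of 6 of these 8 genes, against 12.2% of 27305 genes with such a window. The match nearest before the start is printed for each in a 30-base window, 5′ to 3′ on the gene's strand, with the motif or its reverse complement CTTCCGG in capitals.
SF3A1, chr22:30356925-30356954, minus strand, motif from base -49: aggggacggtcCCGGAAGtgcgccagtcgt
SF3A2, chr19:2236804-2236833, plus strand, motif from base -9: tctcatttgccCCGGAAGtgctttctttgc
SF3A3, chr1:37990072-37990101, minus strand, motif from base -68: gtcccggggcaCTTCCGGcactcgcggaac
SF3B2, chr11:66052339-66052368, plus strand, motif from base -14: gctggccccagCTTCCGGgttggtcgcgcg
SF3B4, chr1:149927811-149927840, minus strand, motif from base -26: ccgtcttcgccCCGGAAGtggaagtcgtgc
SF3B6, chr2:24076327-24076356, minus strand, motif from base -19: cgctgtaacagCTTCCGGcgggtcctggat
The windows of SF3B1 and SF3B5 did not hold these letters. Also on both strands, the letters AAGATGGC, a core of the YY1 site, stood in 3 of the 8 (SF3A1, SF3B2 and SF3B4; 3.52% of all genes with a window), and the TATA box letters TATAAA in 0 of 8 (14.0%). The GC box GGGCGG stood in 6 of 8 (48.3%), CCAAT in 1 (39.7%) and the NRF1 core TGCGCATGC in 1 (1.88%). No match overlapped that of another motif. These matches describe the reference sequence only. The shares are over all genes with a window, a wider set than the 14528 genes with a gene value here. Shares among those 14528 genes were not counted, so the motifs cannot be called particular to the subunits.

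The shRNA target was lower with both shRNAs. HTATSF1 read 8.54 and 8.32 with the empty vector and 8.53, 8.63 and 8.49 with the GFP shRNA. It read 8.29, 8.21 and 8.22 with shRNA A and 8.11, 8.19 and 8.21 with shRNA B. Every knockdown array thus lay below every control array, and the difference of -0.30 ± 0.051 (SE) had an adjusted p of 0.0484 by limma. An exact two-sided permutation test over the 462 splits of the arrays gave p = 0.0022. That is the smallest p this test can give, so it adds nothing to the lack of overlap. It also treats the arrays of a construct as independent. The difference kept its direction in all 25 alternatives (-0.35 to -0.21) but passed in 7 of them, and leaving out any single array other than empty vector replicate 2 ended the call (adjusted p between 0.0566 and 0.103). These gene values are log2 medians over a gene's probe sets. Dim probe sets crowd near 7.91 on this scale, so a difference understates the change of the transcript, and most for genes near that level. Over the arrays, the mean of the 3000 brightest genes was 9.26 ± 0.0447 (SD, n = 6) in the knockdown group and 9.32 ± 0.0411 (SD, n = 5) in the controls. A suffix in the array name was carried by 4 knockdown arrays (all of shRNA B and shRNA A replicate 3) but no control. With that brightness as a covariate HTATSF1 was at -0.24 (adjusted p = 0.215 by limma). With the suffix as a block it was at -0.25 (adjusted p = 0.356 by limma). Of the line's markers, VIM, KRT8, KRT18, INA and NEFL read between 9.23 and 10.2 in the controls, while NEFM (7.97) and PAX2 (8.18) lay near the level of dim probe sets. Markers of blood, liver and endothelium read between 7.91 and 8.01 in the controls where measured, and those of fibroblasts between 7.92 and 8.12. Of the epithelial markers EPCAM read 8.81, CDH1 8.05 and KRT5 8.10. All marker values come only from probe sets averaging at least 7.91, so none could read far below it. A marker needed at least 1 such probe set, and VWF had 11 of 68 and TTR 1 of 5. CD3E, a blood marker with 2 probe sets above that level, read 8.00 in the controls and 8.27 in the knockdown arrays, and its part in the results was not tested.

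**Figure D1:**
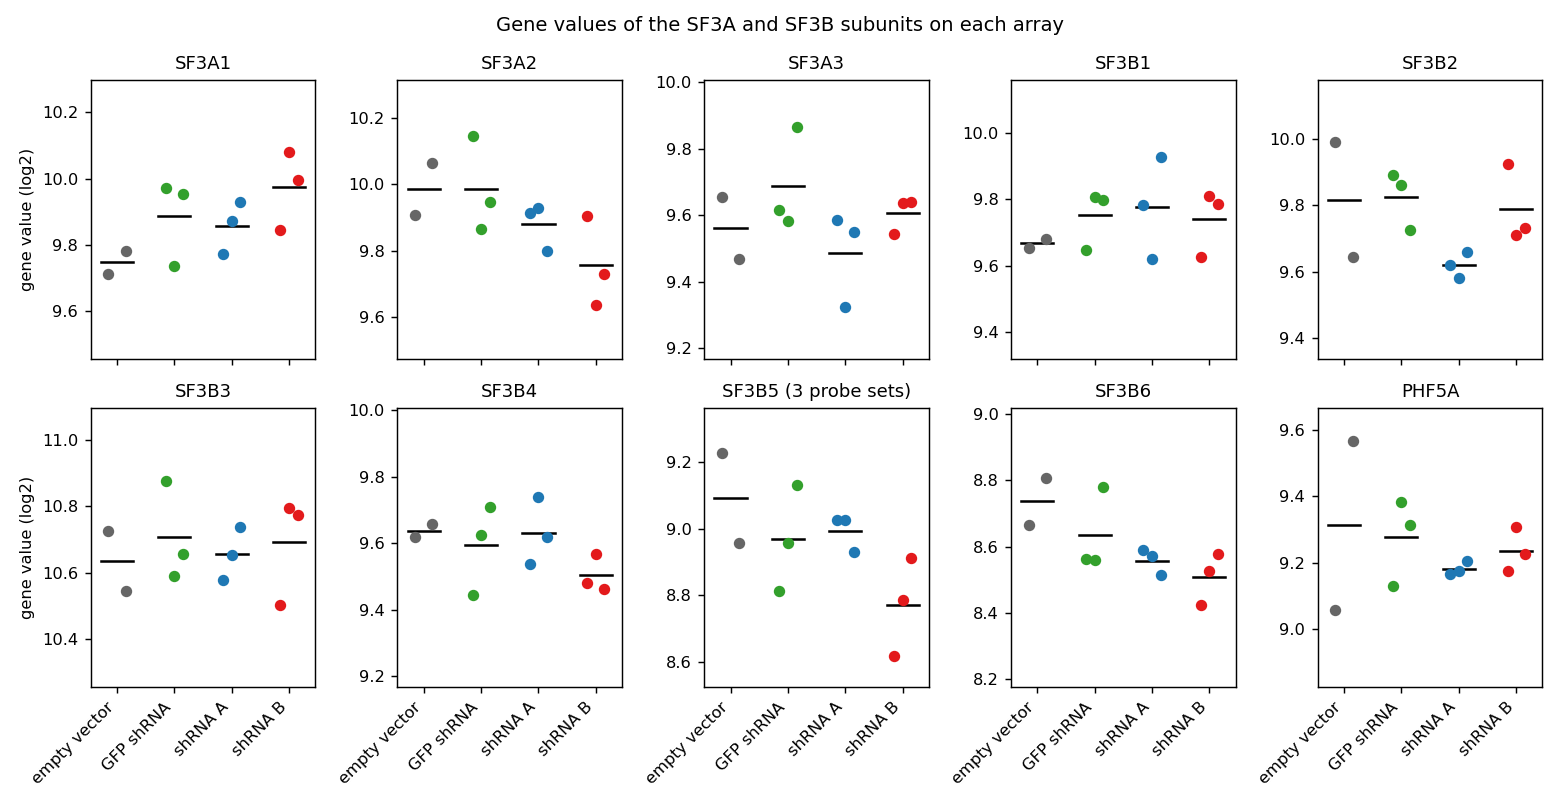
Gene values (log2) of the 10 subunit genes on each of the 11 arrays, by construct. Each point is an array and each bar the construct mean; every panel spans the same log2 range. In no panel do the 6 knockdown arrays separate from the 5 controls.

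In the pooled comparison 7 of the 9 subunit genes with a gene value had lower means in the knockdown arrays and 2, SF3A1 and SF3B1, had higher means. None passed (0 of 9; over all genes 32 of 14528, 0.22%, passed), and the lowest adjusted p among the subunits was 0.232. SF3A2 and SF3B6 had an unadjusted p under 0.05, 2 of 9, where 15.2% of all genes did. A lower mean was also the case for 67.2% of all genes. The median subunit difference was -0.08, against -0.02 over all genes. It was -0.04 without empty vector replicate 2 and -0.03 without GFP shRNA replicate 3. The count of lower subunits was 6 after quantile normalization (65.3% of all genes lower), 5 after cyclic loess (50.3%), 9 with median polish (70.3%) and 5 with array brightness as a covariate (45.3%). In bulk RNA, fewer cells with a transcript and less transcript per cell cannot be told apart. In 0 of the 9 genes did the knockdown arrays lie wholly on one side of the controls, against 2.24% of all genes.

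The pooled fit gives each gene an interval on the array scale, drawn from the scatter of arrays within the groups. Over the 9 genes, the 95% confidence intervals of the pooled difference lay between -0.32 and 0.24. Their outer limits correspond to a level 1.25-fold lower (SF3A2) and 1.18-fold higher (SF3A1). The standard errors were between 0.055 (SF3B6) and 0.078 (SF3B3). The intervals are for single genes and are not adjusted for their number. They leave out array brightness and the name suffix, so they are not outer bounds. With brightness as a covariate SF3B3 was at 0.17, above its pooled upper limit of 0.16. For shRNA B alone the intervals of the 9 genes lay between -0.41 and 0.33.

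Of the SF3A complex, SF3A2, a zinc finger protein that contacts the U2 branch site helix, had the most negative difference. It read 9.91 and 10.06 with the empty vector and 10.14, 9.87 and 9.95 with the GFP shRNA. With shRNA A it read 9.92, 9.93 and 9.80, and with shRNA B 9.91, 9.64 and 9.73. The groups overlapped, with 3 of the 6 knockdown arrays (shRNA A replicate 3 and shRNA B replicates 2 and 3) below every control. The pooled difference was -0.17 ± 0.074 (SE; adjusted p = 0.299 by limma). All 8 of its probe sets in use had lower means in the knockdown arrays, by between -0.04 and -0.25, where 61.6% of all probe sets did. Against the same controls 6 of the 8 were lower with shRNA A and 8 with shRNA B.

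SF3A1, which carries the SURP modules that bind SF1 and SF3A3, had a higher mean. It read 9.71 and 9.78 with the empty vector, 9.97, 9.74 and 9.95 with the GFP shRNA, 9.77, 9.87 and 9.93 with shRNA A, and 9.84, 10.08 and 9.99 with shRNA B. The empty vector arrays were among the 4 lowest, and 2 of the 3 shRNA B arrays lay above every control. The difference was 0.08 ± 0.073 (SE; adjusted p = 0.63 by limma), and it was -0.0022 with the mean of the probe sets in place of their median. Of its 21 probe sets in use, 12 had higher and 9 lower means.

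SF3A3, the subunit that ties SF3A to the rest of the particle, averaged 9.64 ± 0.15 over the control arrays (SD, n = 5) and 9.55 ± 0.12 over those of the knockdown (SD, n = 6). Its lowest array was shRNA A replicate 2, at 9.32, and its highest GFP shRNA replicate 3, at 9.87. The difference was -0.09 ± 0.076 (SE; adjusted p = 0.609 by limma).

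In the SF3B complex, SF3B1, the scaffold that Tat-SF1 binds, differed little between the groups. It read 9.65 and 9.68 with the empty vector and 9.65, 9.81 and 9.80 with the GFP shRNA. It read 9.78, 9.62 and 9.93 with shRNA A and 9.63, 9.81 and 9.78 with shRNA B. The lowest and the highest of the 11 arrays both came from shRNA A, replicates 2 and 3. The pooled difference was 0.04 ± 0.068 (SE; adjusted p = 0.82 by limma), with an interval from -0.10 to 0.18. Of its 33 probe sets in use, 17 had lower and 16 higher means.

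PHF5A, a small zinc-binding protein that lies against SF3B1 at the branch site pocket, averaged 9.29 ± 0.20 over the control arrays (SD, n = 5) and 9.21 ± 0.054 over those of the knockdown (SD, n = 6). The empty vector arrays, at 9.06 and 9.57, were the lowest and the highest of all. SF3B3, a propeller protein of the complex core, averaged 10.68 ± 0.13 (SD, n = 5) and 10.67 ± 0.12 (SD, n = 6), and its difference of -0.0053 had an interval from -0.17 to 0.16.

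SF3B6, which contacts the branch point adenosine, had lower means with both shRNAs. It read 8.67 and 8.81 with the empty vector and 8.56, 8.56 and 8.78 with the GFP shRNA. It read 8.59, 8.57 and 8.51 with shRNA A and 8.42, 8.53 and 8.58 with shRNA B. Of the 6 knockdown arrays 3 lay below every control, and the other 3 lay just above the lowest GFP shRNA arrays. The difference was -0.14 ± 0.055 (SE; adjusted p = 0.232 by limma). Of its 6 probe sets in use 5 had lower means, and the largest difference was -0.29.

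SF3B2, which pairs with SF3B4 in contacting the pre-mRNA upstream of the branch site, had its lower values with shRNA A. It read 9.62, 9.58 and 9.66 there and 9.92, 9.71 and 9.73 with shRNA B. It read 9.99 and 9.64 with the empty vector and 9.89, 9.86 and 9.72 with the GFP shRNA. Of the controls, empty vector replicate 2 alone lay within the range of shRNA A. Of its 22 probe sets in use 19 had lower means, by as much as -0.44. SF3B4, an RNA-binding protein with RNA recognition motifs, averaged 9.61 ± 0.10 over the control arrays (SD, n = 5) and 9.57 ± 0.10 over those of the knockdown (SD, n = 6).

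SF3B5, the smallest partner of SF3B3, had 3 probe sets, so its value comes from a fit that admits genes with at least 1. It read 9.23 and 8.96 with the empty vector, 8.81, 8.96 and 9.13 with the GFP shRNA, 9.03, 9.03 and 8.93 with shRNA A, and 8.62, 8.78 and 8.91 with shRNA B. The shRNA B arrays included the 2 lowest. The pooled difference was -0.13 ± 0.087 (SE; adjusted p = 0.527 by limma). The value on every array is that of the probe set in the middle, 2977692; probe sets 2977691 (9.23 in the controls, 9.26 in the knockdown arrays) and 2977693 (8.43 and 8.38) differed by less.

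**Figure D2:**
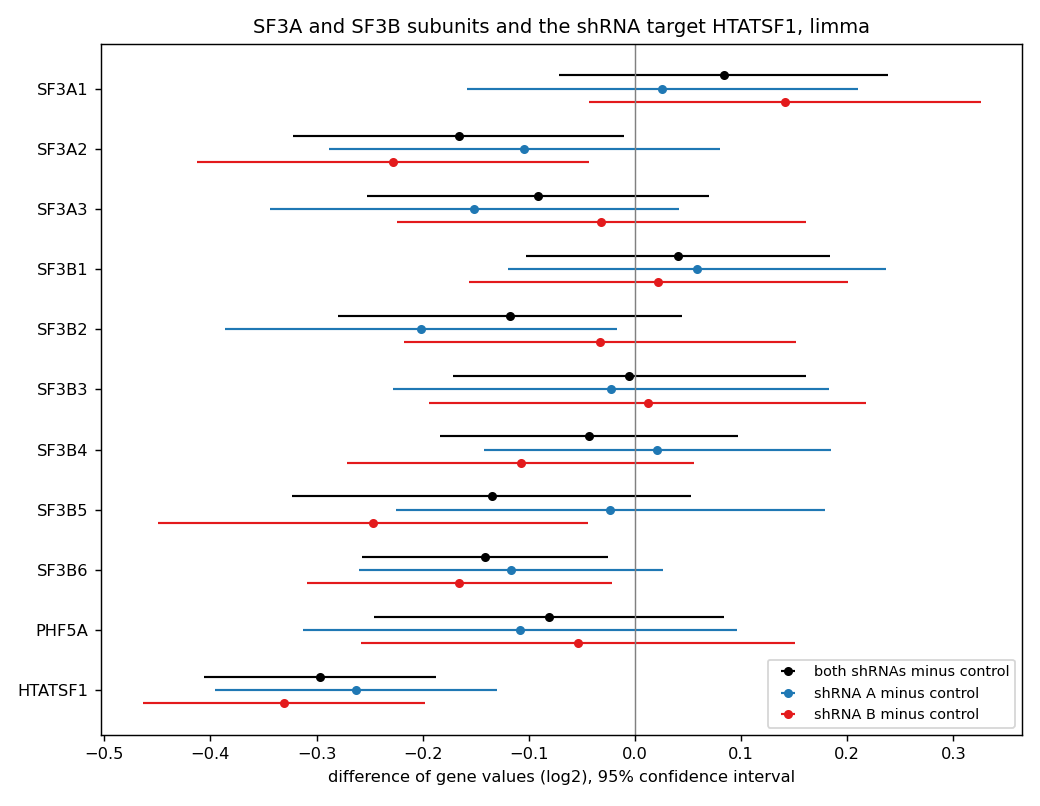
Difference of gene values (log2, knockdown minus control) for the 10 subunit genes and HTATSF1, for both shRNAs pooled and each alone, with 95% confidence intervals from limma. For the subunits in the pooled comparison the intervals of SF3A2 and SF3B6 exclude 0 before adjustment, and HTATSF1 at -0.30 lies below every subunit.

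Each shRNA was also set against the same 5 controls, so these comparisons share arrays. With shRNA A, 0 of 9 subunits passed by limma (over all genes 1, or 0.00688%), and SF3B2 alone had an unadjusted p under 0.05 (-0.20 ± 0.087, SE; adjusted p = 0.426; 10.8% of all genes). With shRNA B, 0 of 9 passed (over all genes 10, or 0.0688%), and SF3A2 (-0.23 ± 0.087, SE; adjusted p = 0.28) and SF3B6 (-0.17 ± 0.067, SE; adjusted p = 0.309) had an unadjusted p under 0.05 (13.3% of all genes). SF3B5, in the wider fit, was at -0.25 ± 0.093 with shRNA B (SE; unadjusted p under 0.05, adjusted p = 0.314) and at -0.02 with shRNA A. The name suffix was on all shRNA B arrays and on no control, so only shRNA A, with 1 array of 3 carrying it, separates suffix from construct. With the suffix as a block, 0 subunits passed with shRNA B and their lowest adjusted p was 0.908 by limma, against 0.28 without the block. In the pooled comparison 0 of all genes passed with that block. The share of all genes for shRNA B with the block is not given here. The change therefore cannot be called particular to the subunits.

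The shRNAs were compared with each other for the same genes. None of the 9 subunits passed by limma (0 of 14528 genes did, 0%), and none had an unadjusted p under 0.05 (638 of all genes did). Among these 9 the largest difference was that of SF3B2, 0.17 higher with shRNA B, with an interval from -0.04 to 0.38 (adjusted p = 0.999). For SF3A2 it was -0.12, with an interval from -0.33 to 0.08. SF3B5, in the wider fit, had a larger difference of -0.22, with an interval from -0.45 to 0.0028 (adjusted p = 0.997). Between the control constructs, GFP shRNA against empty vector, again 0 of 9 passed by limma (1 gene in all, 0.00688%) and 0 had an unadjusted p under 0.05, with differences between -0.10 (SF3B6) and 0.14 (SF3A1). The control constructs thus differed by as much in SF3A1 as shRNA B did from the controls (0.14).

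The probe sets listed under SF3A3 and SF3B4 did not all have numbers beside their own gene. Probe sets are numbered in order along the array's design, and those of the other 8 genes formed 1 run of numbers each. SF3A3 had 3 runs. The first, of 20 probe sets, lay between INPP5B and FHL3, the genes beside SF3A3 on chromosome 1. The second, of 8, lay between CLMP and SCN3B on chromosome 11, where RefSeq places the pseudogene SF3A3P2. The third, also of 8, lay between DNAAF9 and GFRA4 on chromosome 20, where it places SF3A3P1. SF3B4 had 12 probe sets between SV2A and MTMR11 on chromosome 1, and 4 within the numbers of GARIN2 on chromosome 14, where RefSeq places SF3B4P1. Near-identical copies can share probes, so values from these runs are uncertain as to their source.

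The runs had differences of either sign. The chromosome 1 run of SF3A3 (19 probe sets in use) averaged 10.07 ± 0.11 over the control arrays (SD, n = 5) and 9.98 ± 0.12 over those of the knockdown (SD, n = 6), a difference of -0.09. The run beside CLMP (6 in use) differed by 0.03 and the run beside DNAAF9 (8 in use) by 0.0076. For SF3B4 the chromosome 1 run (6 in use) differed by -0.09, from 9.54 ± 0.17 to 9.46 ± 0.11, and the run in GARIN2 (4 in use) by 0.06, from 9.73 ± 0.080 to 9.79 ± 0.097. Each of these differences is smaller than the SD of its groups. With the longest run of each gene alone, SF3B4 was at -0.09 in place of -0.04 (adjusted p = 0.641 by limma) and SF3A3 at -0.09 (adjusted p = 0.603). Restricting the genes to 1 run was decided with the values in view.

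**Figure D3:**
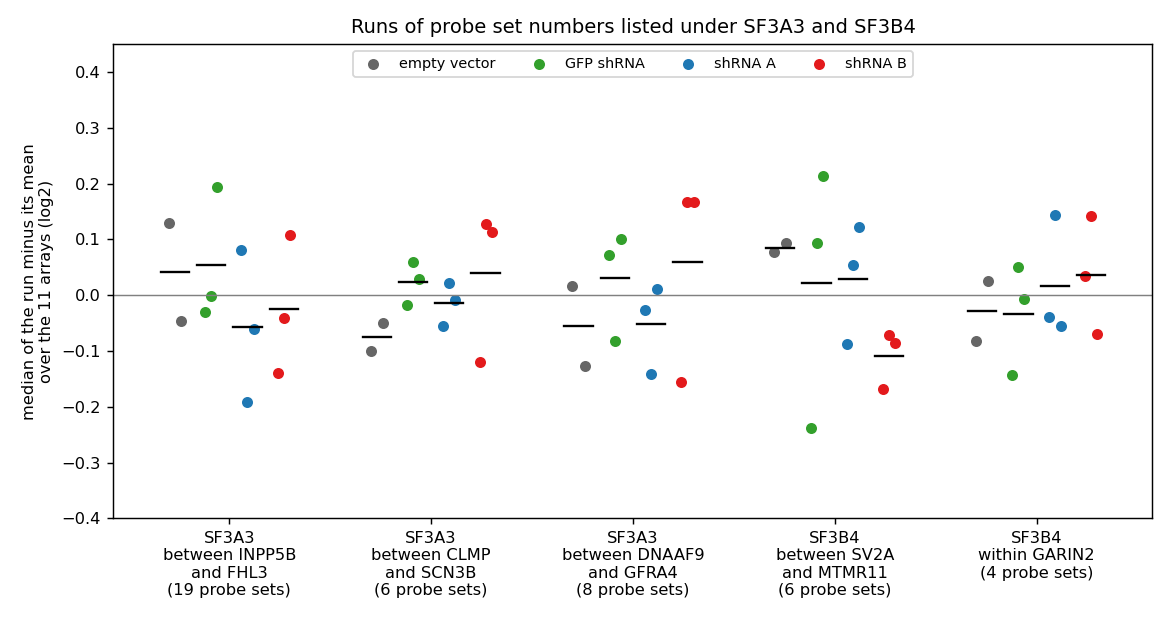
Median of the probe sets of each run listed under SF3A3 and SF3B4, on each array, after taking away the run's mean over the 11 arrays (log2). Points are arrays and bars are construct means. The shRNA B arrays of the chromosome 1 run of SF3B4 lie below its mean, while in the run within GARIN2 they lie on both sides of it.

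The series also asked for changes in exon use. The splicing index is the log2 value of a probe set after the array's gene value is subtracted. It was tested for the 169 probe sets in use from 9 of the genes. Of the other 31, 26 were below the level of dim probe sets, 2 lacked an estimate and 3 were those of SF3B5. None of the 169 passed by limma (over all probe sets 7 of 221484, 0.00316%), and 30 had an unadjusted p under 0.05, 17.8%, where 11.8% of all probe sets did. With diffSplice, which tests each probe set against the rest of its gene, 1 passed, 3957262 of SF3A1 (0.36, adjusted p = 0.00661), where 1.34% of all probe sets passed. The log2 values of 3957262 overlapped between the groups. GFP shRNA replicate 1 (10.01) lay above shRNA A replicates 1 and 2 (9.89 and 9.95) and shRNA B replicate 1 (9.84). The other controls lay below every knockdown array. In 5 probe sets, 2.96%, the knockdown arrays lay wholly on one side of the controls, where 1.45% of all probe sets did. Neither shRNA alone gave a call (0% of all probe sets). An index difference says that probe sets of a gene changed unequally, without saying which of them did.

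Of all member probe sets, 3335947 of SF3B2 came closest. Its log2 value was 10.46 and 10.13 with the empty vector and 10.39, 10.51 and 10.21 with the GFP shRNA. It was 9.86, 9.69 and 9.83 with shRNA A and 10.14, 9.79 and 10.12 with shRNA B. Every knockdown array but shRNA B replicate 1 lay below every control. Relative to the gene the index went from 0.52 ± 0.071 (SD, n = 5) to 0.20 ± 0.11 (SD, n = 6), and here the groups did not overlap. The difference was -0.32 ± 0.055 (SE; adjusted p = 0.0873 by limma). It was -0.35 with shRNA A and -0.29 with shRNA B.

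In SF3B1 the probe set with the smallest p was 2593691. Its splicing index was 0.76 and 0.74 with the empty vector and 0.70, 0.64 and 0.83 with the GFP shRNA. With shRNA A it was 0.61, 0.44 and 0.19, and with shRNA B 0.26, 0.51 and 0.33. All 6 knockdown arrays lay below all 5 controls, while the spread within the knockdown group was wider. The difference was -0.34 ± 0.072 (SE; adjusted p = 0.121 by limma). The next number, 2593692, went the other way, by 0.21 (adjusted p = 0.411).

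In SF3A1 a stretch of neighbouring probe sets lay lower relative to the gene. The smallest p was that of 3957268 (-0.30 ± 0.064, SE; adjusted p = 0.128 by limma), and the next numbers 3957269 (-0.31) and 3957270 (-0.23) also had an unadjusted p under 0.05. The index of 3957268 was -0.40 and -0.66 with the empty vector, -0.60, -0.46 and -0.51 with the GFP shRNA, -0.92, -0.91 and -0.79 with shRNA A, and -0.74, -0.95 and -0.64 with shRNA B. The groups overlapped in 1 pair of arrays, empty vector replicate 2 and shRNA B replicate 3. These 3 neighbours share a gene value that itself had a higher mean in the knockdown arrays, and they are not independent.

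For the other genes the probe sets with the smallest p were smaller in effect. They were 3395680 of SF3A3 (0.25 ± 0.072, SE; adjusted p = 0.219 by limma), which lies in the run beside CLMP, 3667302 of SF3B3 (0.16, adjusted p = 0.255) and 2544185 of SF3B6 (0.12, adjusted p = 0.334). Those of SF3B4 (3541043, 0.13, in the GARIN2 run), SF3A2 (3816356, 0.12) and PHF5A (3961957, 0.08) had an unadjusted p of 0.05 or more. The gene value of PHF5A is on every array the mean of 3961957 and 3961956. Their indices are therefore mirror images, and 3961956 was at -0.08, so neither can be singled out.

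**Figure D4:**
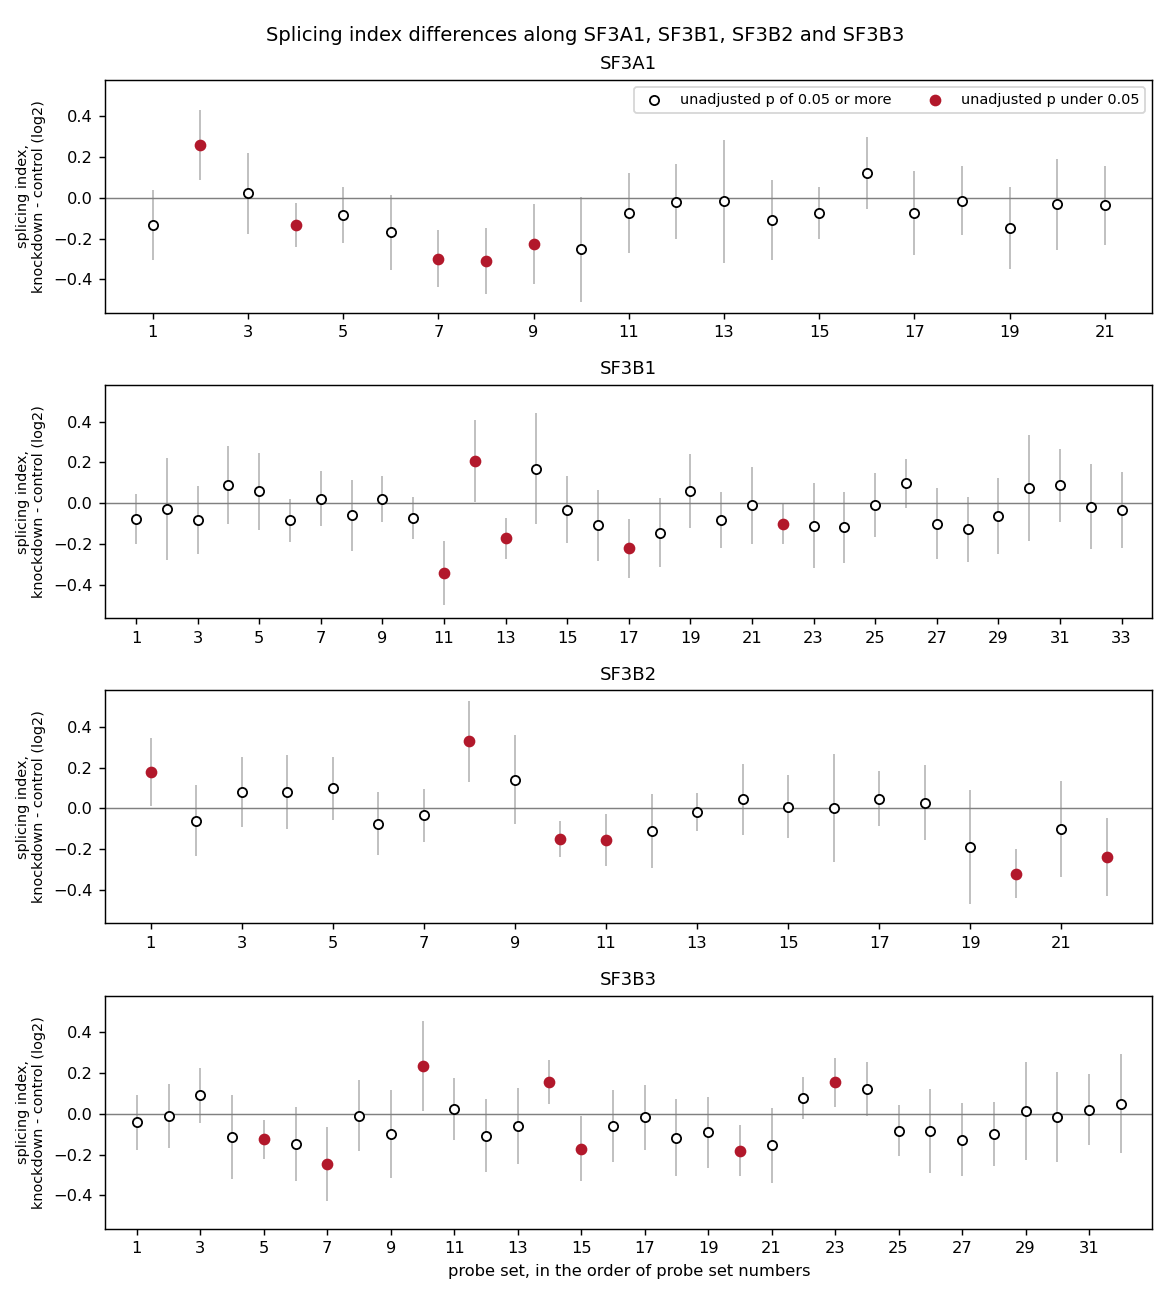
Splicing index difference (log2, knockdown minus control) of each probe set in use of SF3A1, SF3B1, SF3B2 and SF3B3, in the order of probe set numbers, with 95% confidence intervals. Filled points had an unadjusted p under 0.05, and none passed after adjustment by limma; the lowest point of SF3B2 is 3335947 at -0.32.

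Without taking the gene value away, 0 of the 169 probe sets passed by limma on their own log2 values (79 of all probe sets, 0.0357%), and 31, 18.3%, had an unadjusted p under 0.05, where 12.8% of all did. Of the 169, 110 had lower means in the knockdown arrays, 65.1%, where 61.6% of all probe sets did. The split differed by gene: all of SF3A2 (8) and PHF5A (4) and 19 of 22 in SF3B2 were lower. SF3B1 was close to evenly divided (17 lower, 16 higher). The SF3B4 count (5 lower, 5 higher) covers runs of opposite sign, chromosome 1 at -0.09 and GARIN2 at 0.06. The source of these runs is uncertain, so that count cannot be read as an even division of SF3B4 itself. Probe sets of a gene share its RNA and are not replicates.

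Other genes of these particles were looked at as lists. Of the 9 other core proteins of the U2 snRNP, the Sm proteins with SNRPA1 and SNRPB2, none passed by limma in the pooled comparison (5 lower, 4 higher means; 1 with an unadjusted p under 0.05; median -0.04). SNRPA1, which binds a stem-loop of U2 RNA, was at -0.24 ± 0.090 and its partner SNRPB2 at 0.13 ± 0.064 (SE). Both also differed between the control constructs. SNRPA1 averaged 9.18 with the empty vector, 8.95 with the GFP shRNA, 8.84 with shRNA A and 8.77 with shRNA B. For SNRPB2 these means were 8.45, 8.66, 8.72 and 8.69. Of 13 proteins that join U2 or the branch site, none passed (9 lower, 4 higher; 1 with an unadjusted p under 0.05; median -0.03). U2AF1, which reads the 3′ splice site, was at -0.15 ± 0.059 and its partner U2AF2 at -0.18 ± 0.089 (SE). Between the empty vector and the GFP shRNA, U2AF2 went from 9.54 to 9.32 and U2AF1 from 9.15 to 9.09. All 7 measured proteins of the U11/U12 particle had lower means and none passed (1 with an unadjusted p under 0.05, median -0.05). PDCD7 was at -0.21 ± 0.067 and SNRNP48 at -0.10 ± 0.061 (SE). The 7 differences ran from -0.21 to -0.002. The smallest was in a gene with a control mean of 7.97, near the level of dim probe sets. The knockdown arrays of PDCD7 (8.62 to 8.66) all lay within its control range (8.59 to 9.10). Of 20 SAGA subunits, 15 had lower means and none passed (2 with an unadjusted p under 0.05; median -0.04), with TAF6L at -0.14 ± 0.040 and TAF10 at -0.18 ± 0.062 (SE). These counts stand beside 67.2% of all genes with a lower mean and 15.2% with an unadjusted p under 0.05, and the medians beside -0.02 over all genes. With array brightness as a covariate the median over all genes was 0.0041; the lists were not refitted with it.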

How the data were processed

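Per the labels, Affymetrix Human Exon 1.0 ST arrays measured total RNA from these cells. The authors deposited log2 values per exon probe set; which software, normalization and genome build they used is not given in the sources used here. A constant near 0 in the table was read as no estimate (13190 to 15431 probe sets per array). The arrays correlated at 0.94 to 0.962 in pairs, and their number limits the precision. Symbols came from the platform table and were updated through RefSeq synonyms (16450 current, 2965 updated, 121 kept). A probe set was used if it had 1 symbol, was estimated on all arrays and averaged at least 7.91, the median of all probe set means, and a gene needed at least 4. This left 221484 probe sets and 14528 genes. The values of SF3B5 and of the cell markers needed at least 1 probe set. Gene values are medians over probe sets. Differences were tested with limma 3.58.1 in R 4.3.3 (lmFit, eBayes with a trend) with Benjamini-Hochberg adjustment across every gene, or every probe set, in the fit. An adjusted p under 0.05 counts as passing. The pooled fit had 2 levels, each shRNA and their contrast came from 3 levels, and the contrast of the control constructs from 4. The fits were tested on simulated data with independent noise for each gene or probe set. The simulation held no array brightness or name suffix, so it cannot say how the fits behave under these. Named were the target, all members, per member the probe set with the smallest splicing index p, and per list the 2 genes with the smallest p; the probe sets 3957269, 3957270, 2593692 and 3957262 were chosen with their values in view. The members and lists were chosen with earlier results of these data known. Alternatives are given in the closing section.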

Additional observations from a re-analysis of the deposited data

Results flagged for a closer look

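Dixon's test was applied to the control and the knockdown arrays of each subunit's gene value and of its named probe set, 38 groups in all, of which 6 held an array apart from the others; chance alone gives about 5%. For SF3A3, shRNA A replicate 2 stood apart from the other knockdown arrays with a gene value of 9.32. For the splicing index of probe set 3335947 in SF3B2, GFP shRNA replicate 2 stood above the other controls at 0.64. For 3667302 in SF3B3, empty vector replicate 2 stood below the other controls at -0.11. For 2544185 in SF3B6, empty vector replicate 1 stood above them at 0.50, and for 3961957 in PHF5A, GFP shRNA replicate 1 did so at 0.11. By construction its mirror probe set 3961956 was at -0.11 on that array. For 3816356 in SF3A2, shRNA A replicate 2 stood above the other knockdown arrays at -1.21.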

How the results depend on the processing

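No subunit gene passed by limma in any of the 5 comparisons under any alternative run. The lowest adjusted p by limma was 0.107 in the pooled comparison and 0.0861 for shRNA B against control. PHF5A, SF3A2, SF3B2 and SF3B6 were lower under every alternative that gave them a value, and the other 5 subunits with a gene value changed sign under some. SF3A1 was at -0.0095 with a block for the name suffix, -0.0022 with the mean of the probe sets, -0.0021 with median polish and -0.0055 with no floor. SF3B1 was at -0.0168 with the suffix and -0.0025 with median polish. SF3A3 was at 0.0047 with array brightness as a covariate. SF3B4 was at 0.0281 with the suffix and 0.0299 with cyclic loess. SF3B3 was at 0.17 with brightness, 0.0742 with cyclic loess, 0.0018 with quantile normalization, 0.0782 without the brightest and the dimmest array (chosen after seeing the data), and between -0.0389 and 0.0442 leaving out 1 array. The cause was not tested. The median difference of the subunits was -0.0134 with cyclic loess, -0.0439 with the higher floor and between -0.101 and -0.0345 leaving out 1 array. Probe set 3335947 of SF3B2 passed on its log2 value with the higher floor (1 member probe set in place of 0; over all probe sets 1264 in place of 79). By splicing index 1 member probe set, 3957269 of SF3A1, passed with brightness, and 2, that and 3335947, passed with cyclic loess, where normalized gene values were taken from probe sets as deposited; diffSplice called 1. Over all probe sets 169 passed with brightness and 670 with cyclic loess, in place of 7.

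Over all genes the pooled count of 32 became 2 with the GFP shRNA alone as control, 0 with brightness (limma), 0 with the suffix, 0 without the brightest and the dimmest array, 1 with at least 1 probe set per gene, 7 with cyclic loess, 255 with the higher floor, 87 without a trend, 138 with the mean, 10 with median polish and 19 with no floor. Leaving out 1 array gave between 2 and 66: 7 and 66 (empty vector replicates 1 and 2), 8, 12 and 2 (GFP shRNA replicates 1 to 3), 5, 4 and 3 (shRNA A) and 4, 4 and 7 (shRNA B). With the replicate number as a replicate block 10 genes passed and 0 subunits did. The labels give the constructs the same numbers, but the deviations of same-numbered arrays correlated between -0.15 and 0.27, and 4 of 11 arrays correlated best with their own number.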

Other observations

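Across the 11 arrays, the genes most like the mean of the 9 subunits, after each was centred, were SLC25A46, a mitochondrial outer membrane protein (Pearson r = 0.957), PCGF5, a Polycomb group protein (0.942), and EIF4A3, a core protein of the exon junction complex (0.931), the highest of 14519 genes. The 11 arrays share labelling and brightness, and the values describe these arrays only. The subunit mean lay highest on GFP shRNA replicate 3 (0.09 above its average) and lowest on shRNA B replicate 1 (-0.06), which was also the dimmest array by its 3000 brightest genes (9.18). Over the 11 arrays the subunit mean and that brightness had a Pearson r of 0.806, both being read from the same arrays. In the pooled comparison SLC25A46 was at -0.13 ± 0.051 (SE, adjusted p = 0.25 by limma) and PCGF5 at -0.09 ± 0.047 (SE, adjusted p = 0.378). EIF4A3 was at -0.12 ± 0.057 (SE, adjusted p = 0.319 by limma).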
